A study of Mus musculus with 9 samples.

Results

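The 6 genes described here, Chat, Slc18a3, Slc5a7, Slc17a8, Lhx8 and Gbx2, mark the cholinergic interneurons of the striatum. They were taken as a named list of 6 from 49554 RefSeq genes on the autosomes and the X chromosome, and the rule names them without a threshold on any measured value. DNA from frozen punches of the nucleus accumbens, the ventral part of the striatum, was sequenced genome-wide after bisulfite treatment to read methylation at CpGs. Bisulfite converts unmethylated cytosine and leaves methylated cytosine, so the methylation level is the percent of calls that stayed C, and hydroxymethylated cytosine counts as methylated here. All DNA was from male C57BL/6J mice 8 weeks old with no allele or transgene in the labels: 5 are labelled Control (numbered 2, 3, 4, 5 and 8) and 4 Susceptible (2, 3, 6 and 7). All 9 carry the same treatment description, 10 daily defeats by an aggressive CD1 male, and the sources used here give neither the housing of Control mice nor the scoring of susceptibility. Nothing in the labels says that each library came from 1 mouse, so the p-values measure the spread between these libraries.

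Cholinergic interneurons are large, tonically active cells that supply most of the acetylcholine of the striatum, and they make up only a small minority of its neurons. Chat encodes the enzyme that makes acetylcholine from choline, Slc5a7 the transporter that takes choline back into the terminal, and Slc18a3 the transporter that loads acetylcholine into vesicles. Slc17a8 encodes the vesicular glutamate transporter VGLUT3, which these cells also use, and Lhx8 and Gbx2 encode homeodomain transcription factors that act in their development. The level of a punch is an average over all of its cells. A different share of cells and a different level within cells therefore cannot be told apart. These 9 libraries hold no RNA values, so the identity of the cells was not checked from expression. Levels at the genes of other cell types are given as a description, and they do not show which cells were present: median start window levels were 81.5% for 4 microglia genes, 69.9% for 5 oligodendrocyte genes 55.5% for 5 astrocyte genes, 38.3% for 6 genes of GABA interneurons, 8.44% for 5 genes of cortical projection neurons, whose cell bodies are not in the accumbens, 6.76% for 8 genes of striatal projection neurons and 9.22% for the 6 cholinergic genes.

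The deposited calls at CpGs summed to between 313475624 (Control 5) and 570984634 (Susceptible 2), and every listed cytosine had at least 10 calls. Control 5 and Control 8 stand apart from the other libraries. At CpGs of middle level the strands disagreed by 18.4 and 19.7 times the binomial value in those libraries and by 2.42 to 6.11 times in the other 7. Susceptible 6 and Susceptible 7 also stand apart at some genes: at the bodies of 12 striatal projection neuron genes they were the 2 highest of the 9 libraries for 7 genes. At the start windows of that list this held for 1 of 8. The tests of start windows, bodies and tiles were also run without either pair, the second chosen after seeing the data. In simulated data, the test recovered 82.5% of 200 start windows changed by 20 percentage points and 24% of 200 changed by 10, all near the middle of the scale.

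The sequence before the start of a gene sets how many CpGs can be read there. All 6 genes lie on the minus strand. The 250 bases before the start are shown for Chat and Slc18a3, whose starts lie 1059 bp apart in 1 locus but were read very differently, for Slc17a8, whose start was partly methylated, and for Gbx2, whose start was unmethylated. They are from RefSeq with assembly GRCm38.p6, written 5′ to 3′ along the gene, and each CG is in capitals. Chat is at chr14:32465910-32466159, Slc18a3 at chr14:32464851-32465100, Slc17a8 at chr10:89621250-89621499 and Gbx2 at chr1:89931177-89931426.
Chat: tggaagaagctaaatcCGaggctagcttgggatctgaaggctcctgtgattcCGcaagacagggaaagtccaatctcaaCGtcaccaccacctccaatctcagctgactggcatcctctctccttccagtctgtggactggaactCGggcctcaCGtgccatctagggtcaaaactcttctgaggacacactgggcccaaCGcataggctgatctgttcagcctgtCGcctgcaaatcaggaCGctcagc
Slc18a3: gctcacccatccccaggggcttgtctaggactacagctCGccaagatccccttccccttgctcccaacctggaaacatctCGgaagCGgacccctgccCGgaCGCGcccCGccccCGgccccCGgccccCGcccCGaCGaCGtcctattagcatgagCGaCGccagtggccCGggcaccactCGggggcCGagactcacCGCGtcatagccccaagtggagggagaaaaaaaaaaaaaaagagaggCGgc
Slc17a8: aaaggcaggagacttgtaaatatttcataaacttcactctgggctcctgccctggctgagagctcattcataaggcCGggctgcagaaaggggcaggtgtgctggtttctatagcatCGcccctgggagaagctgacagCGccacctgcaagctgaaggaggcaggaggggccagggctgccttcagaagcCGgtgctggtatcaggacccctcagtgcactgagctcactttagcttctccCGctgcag
Gbx2: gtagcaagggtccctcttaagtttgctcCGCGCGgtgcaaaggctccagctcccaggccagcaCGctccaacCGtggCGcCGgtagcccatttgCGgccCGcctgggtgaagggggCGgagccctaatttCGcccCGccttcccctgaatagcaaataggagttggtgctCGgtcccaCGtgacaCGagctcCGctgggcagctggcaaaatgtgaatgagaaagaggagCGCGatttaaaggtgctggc

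Chat had 8 CGs in these 250 bases and Slc18a3 had 21. Over the 9 libraries, the 8 CpGs of Chat read between 69.0% and 86.7%, each from 337 to 606 calls. Of the 21 of Slc18a3, 14 were listed in any library and 3 in all 9. Those 14 read from 0% to 5.88% with a median of 0%, each from only 12 to 267 calls. Gbx2 had 18, all listed in all 9 libraries, and they read from 0% to 8.49%. The 5 of Slc17a8 spread from 22.8% to 62.5%, the highest being the CG at base 140 of the sequence, 111 bases before the start. Slc5a7 had 1 CG here, read at 92.0%, and Lhx8 had 4, of which 3 were listed in any library and none in all 9, at 9.38%, 13.6% and 36.5%.

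A few short motifs were searched on both strands of the same 250 bases, as a description of these letters only. The E-box CACGTG was found in Chat and Gbx2 and in 6.09% of 26794 promoters. The GC box GGGCGG was found at 2 places in Slc18a3 and at 1 in Gbx2, and in 33.2% of promoters. TATAAA was found in Slc5a7 and in 13.02% of promoters. TGACG, which lies within the longer TGACGTCA, was found in Chat and Slc18a3 and in 17.9% of promoters, while the homeodomain core TAATTA (4.86% of promoters) and TGACGTCA (1.61%) were found in none of the 6.

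Around the start (1000 bp on each side) the 6 genes spanned most of the scale. In order of the Control mean, Gbx2 read 2.16%, Lhx8 3.79%, Slc18a3 4.23%, Slc5a7 13.5%, Chat 46.0% and Slc17a8 69.5%. The values of single libraries overlapped between Gbx2, Lhx8 and Slc18a3, which are therefore not ordered. Slc5a7, Chat and Slc17a8 each lay above the gene before it in every library. Among 24060 start windows that could be tested, with no library under 3 CpGs or 20 calls, the median level was 29.3%, and the 6 levels stood at the 15.3 percentile (Gbx2) to the 59.2 percentile (Slc17a8). The start windows of related transporter genes were also low to intermediate: about 1.71% in Control libraries for Slc32a1, the vesicular GABA transporter, 7.84% for Slc17a6 and 29.6% for Slc17a7, the vesicular glutamate transporters VGLUT2 and VGLUT1, and 17.5% for Slc18a2, the vesicular monoamine transporter.

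**Figure D1:**
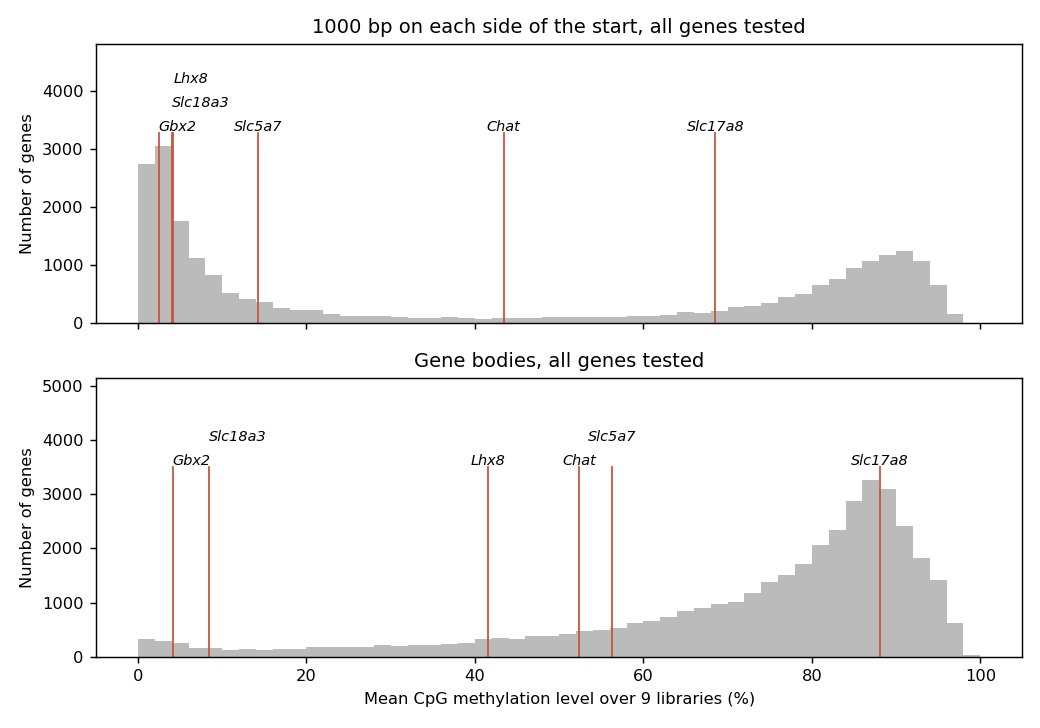
Histograms of the mean methylation level over 9 libraries (%, x axis) against the number of genes (y axis), for start windows (top) and gene bodies (bottom), with the 6 cholinergic genes as labelled lines. Gbx2, Lhx8 and Slc18a3 sit in the low peak of start windows and Chat and Slc17a8 between the peaks, while in gene bodies Slc17a8 sits in the high peak and the other 5 below it.

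The single CpGs show what lies behind those averages. In the start window of Gbx2, 179 of 183 listed CpGs read under 10% and none over 90%. Slc18a3 had 119 of 130 under 10%, and Lhx8 67 of 76. Slc5a7 had 37 of 47 under 10% and 1 over 90%. Chat was mixed, with 32 of 58 CpGs under 10%, 23 between 10% and 90% and 3 over 90%. Slc17a8 had none of 33 under 10% and 10 over 90%.

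**Figure D2:**
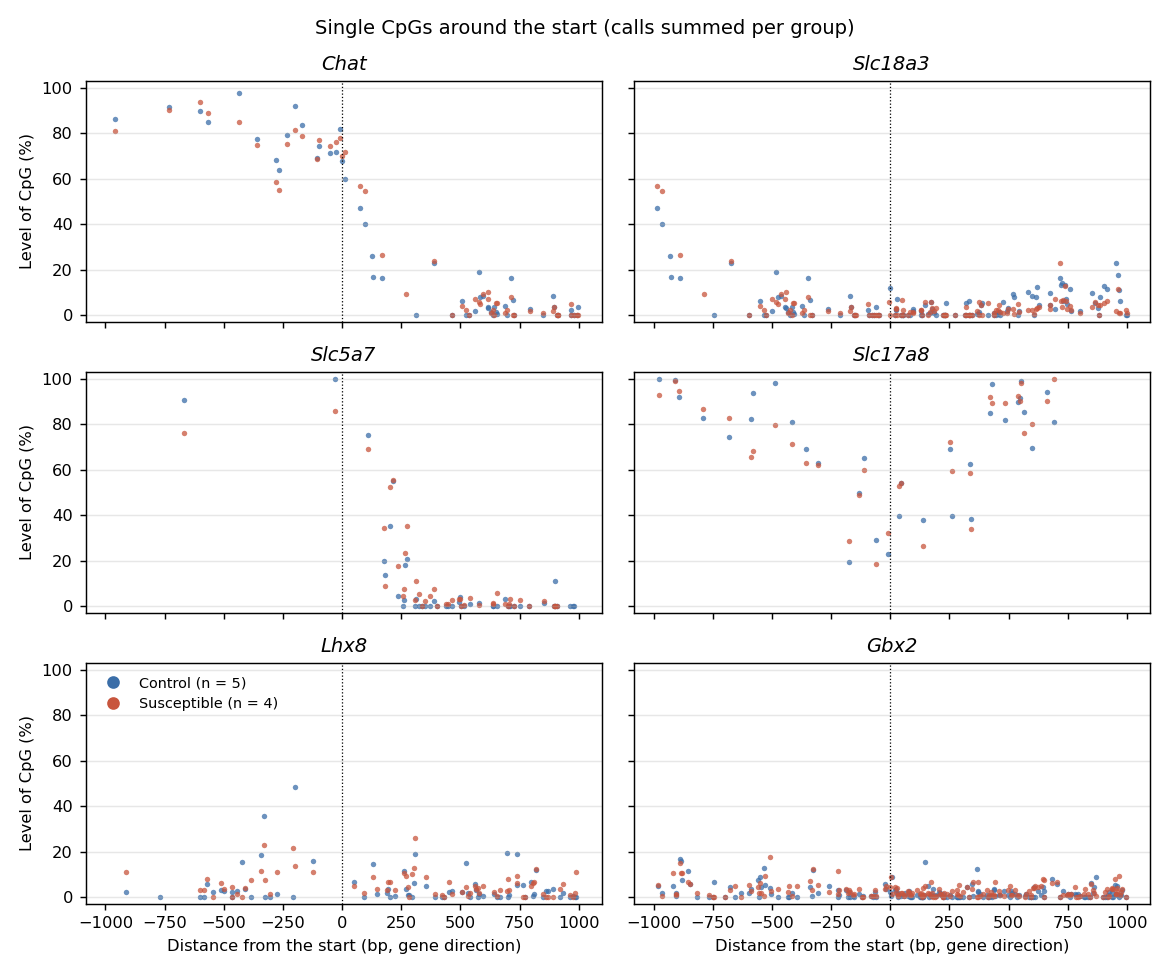
Level of each CpG (%, y axis) against its distance from the start in the direction of the gene (bp, x axis), calls summed over the 5 Control (blue) or 4 Susceptible libraries (red). Chat and Slc5a7 drop from high to low just past the start, Slc17a8 dips around it and rises again, and Slc18a3, Lhx8 and Gbx2 are mostly low, apart from the upstream edge of the Slc18a3 window, which ends just short of the start of Chat.

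Low methylation reached furthest along the 2 transcription factor genes. Counting consecutive 1-kb tiles under 30% that hold or touch the start, Gbx2 lay in a stretch of 10000 bp (chr1:89927001-89937000) and Lhx8 in one of 8000 bp (chr3:154327001-154335000). Of 26794 genes, 0.560% had a stretch as long as that of Gbx2 or longer and 0.817% one as long as that of Lhx8. Chat and Slc18a3 shared a stretch of 3000 bp (chr14:32463001-32466000), a length that 13.7% of genes reached, and Slc5a7 had 1000 bp (chr17:54298001-54299000). A stretch of 1000 bp or more was found at 49.05% of genes, and the rest had none. Slc17a8 had none: no tile that holds or touches its start was under 30%, and the tile with the start read 55.1%. The tile with the start of Slc5a7 read 87.2%, and its stretch is the tile next to it.

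**Figure D3:**
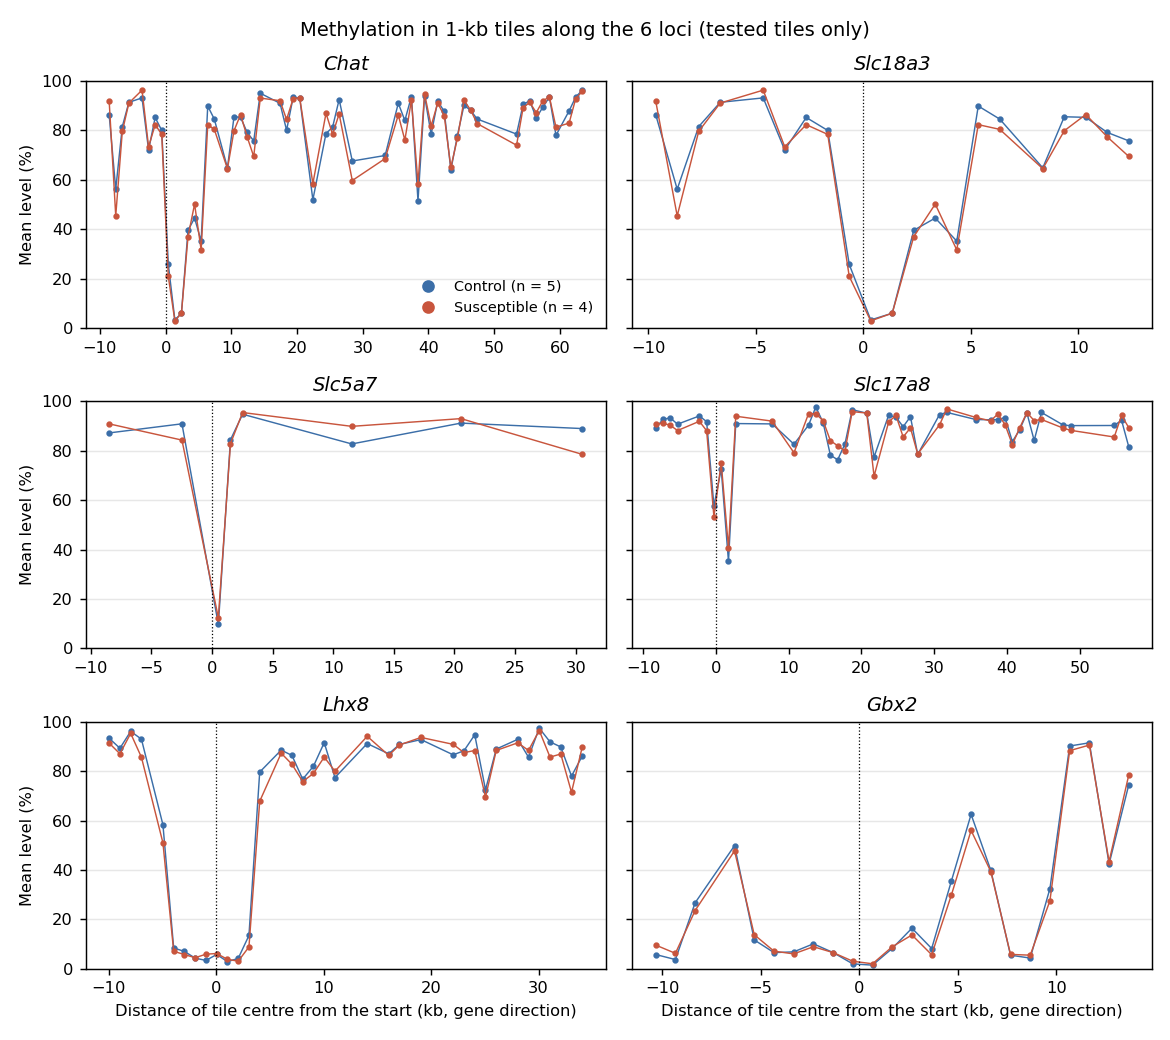
Mean level of Control (blue) and Susceptible (red) libraries in tested 1-kb tiles (%, y axis) against the distance of the tile from the start in the direction of the gene (kb, x axis), for each gene with 10 kb on each side. Lines join tested tiles across gaps. The low stretch is 10000 bp long at Gbx2 and 8000 bp at Lhx8, while Slc17a8 has none, and the lines of the groups run together along most of each locus.

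Between the groups, no start window of the 6 genes passed the test, and the groups overlapped in all 6. The quasi-binomial model on methylated and unmethylated calls called 0 of 6 after Benjamini-Hochberg adjustment (background 0% of 24060 windows) and had 0 of 6 at an unadjusted p under 0.05 (background 4.86%). Groups did not overlap in 1.91% of all windows. The alternative test, limma on logit levels, called 0 as well, with 0 of 6 and 925 of 24060 windows at an unadjusted p under 0.05. Susceptible means were higher for 3 of the 6 genes, where the share over all windows was 47.5%. The median difference over the 6 genes was 0.0526 percentage points, against -0.0880 over all windows.

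For acetylcholine synthesis, the start window of Chat read 38.5%, 43.9%, 53.0%, 54.7% and 39.9% in Control 2, 3, 4, 5 and 8. It read 43.6%, 39.5%, 43.7% and 33.9% in the Susceptible ones (2, 3, 6 and 7). Control 4 and Control 5 were the highest and Susceptible 7 the lowest, and the other libraries were mixed. The means were 46.0% ± 7.44 (SD, n = 5) and 40.2% ± 4.65 (SD, n = 4). The difference was -5.82 points (quasi-binomial adjusted p = 0.965, exact two-sided permutation p = 0.214).

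The Chat window joins a methylated part to an unmethylated one, and libraries differed in how many calls came from each. The 1000 bp before the start read 78.6% ± 3.60 and 76.4% ± 7.58 (SD over 5 Control and 4 Susceptible libraries). The 1000 bp after it read 8.18% ± 2.34 and 8.50% ± 2.15. The part before the start gave 53.5% of the calls of a Control library on average and 46.6% of those of a Susceptible library, with a range of 44.5% to 63.8% and the highest share in Control 5. When the 23 CpGs listed in all 9 libraries had equal weight, the means were 49.3% and 48.0%, a difference of -1.37 points. The spread over all 9 libraries was larger for this window than for most: it stood at the 85.1 percentile of all windows.

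Slc18a3 lies within the Chat gene, and 40 of the 58 CpGs of the Chat window also belong to its own window, so the windows are not independent. Its start window read 5.02%, 5.73%, 5.19%, 2.36% and 2.85% in the Control libraries (2, 3, 4, 5 and 8) and 4.28%, 3.99%, 3.68% and 2.68% in the Susceptible ones (2, 3, 6 and 7). All 9 libraries were low, and Control 5 was the lowest of all and Control 3 the highest. The means were 4.23% ± 1.52 (SD, n = 5) and 3.66% ± 0.697 (SD, n = 4). They differed by -0.573 points (quasi-binomial adjusted p = 0.973). The CpGs shared with Chat read 6.08% and 5.62%, and those of the Chat window that are not shared 78.1% and 76.1%.

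For choline uptake, Slc5a7 read 15.8%, 15.97%, 7.72%, 17.0% and 11.1% in the Control libraries (2, 3, 4, 5 and 8) and 18.4%, 15.3%, 16.9% and 10.2% in the Susceptible ones (2, 3, 6 and 7). Control 4 was the lowest and Susceptible 2 the highest. The means were 13.5% ± 3.96 (SD, n = 5) and 15.2% ± 3.56 (SD, n = 4). Susceptible minus Control was 1.67 points (quasi-binomial adjusted p = 0.973). Most calls came from the 45 CpGs after the start, at 9.72% and 12.4%, while the 1000 bp before the start held only 2 listed CpGs with 16 to 72 calls a library. When the 16 CpGs listed in all 9 libraries had equal weight, the means were 7.42% and 7.41%.

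Slc17a8, the glutamate transporter gene, read 67.8%, 64.0%, 77.3%, 70.1% and 68.1% in the Control libraries (2, 3, 4, 5 and 8) and 70.5%, 68.7%, 66.9% and 63.6% in the Susceptible ones (2, 3, 6 and 7). Control 4 was the highest, and the other 8 libraries overlapped between groups. The means were 69.5% ± 4.91 (SD, n = 5) and 67.4% ± 2.94 (SD, n = 4). The gap between them was -2.05 points (quasi-binomial adjusted p = 0.974). Its sign differed by strand, with 5.56 points on the forward strand and -5.29 on the reverse. The sides of the start had differences of opposite sign, 72.2% against 66.3% before it and 62.3% ± 12.9 against 68.8% ± 2.23 after it. RefSeq gives a second start 21434 bp downstream at 89599815 on chromosome 10, where the same window read 82.8% in Control and 77.6% in Susceptible libraries.

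Both transcription factor genes were low in every library. The start window of Lhx8, a LIM-homeodomain gene, read 3.998%, 3.17%, 4.90%, 5.17% and 1.73% in the Control libraries (2, 3, 4, 5 and 8) and 5.08%, 4.13%, 5.62% and 3.75% in the Susceptible ones (2, 3, 6 and 7). Control 8 was the lowest. The means were 3.79% ± 1.39 (SD, n = 5) and 4.65% ± 0.858 (SD, n = 4). This gave a difference of 0.851 points (quasi-binomial adjusted p = 0.973). The strands gave opposite signs, -1.32 points on the forward strand and 1.84 on the reverse. Control 8 read 7.01% on the forward strand and 0.155% on the reverse. Gbx2 read 2.31%, 3.18%, 2.03%, 1.90% and 1.36% in the Control libraries in the same order, and 2.67%, 2.54%, 3.23% and 2.89% in the Susceptible ones. All 4 Susceptible values of Gbx2 exceeded those of 4 Control libraries, but Control 3 lay above 3 of them. Its means were 2.16% ± 0.668 (SD, n = 5) and 2.83% ± 0.301 (SD, n = 4). The Susceptible mean differed by 0.678 points (quasi-binomial adjusted p = 0.965, exact two-sided permutation p = 0.103). This window had the most calls of the 6, from 3362 to 9844 a library, and its unadjusted p of 0.0683 was the smallest of the 6.

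Single libraries carried much of most of these differences. That of Gbx2 moved less, from 0.479 to 0.934 points with 1 library left out. By strand, however, the Gbx2 difference was 0.341 points forward and 1.31 reverse, with Control 5 at 0.0851% on the reverse strand. Chat (-6.13 and -4.67), Slc18a3 (-0.371 and -0.798) and Slc5a7 (1.57 and 1.96) also kept their sign on both strands. Lhx8 and Slc17a8 did not. Differences between strands were not tested. Gbx2 also had an unadjusted p under 0.05 in at least 1 setting, but was not called in any. Over cytosines with at least 20 calls the difference of the Chat window was -11.1 points (limma-moderated adjusted p = 0.941), without Control 5 it was -3.65, without Susceptible 7 it was -3.71, and without Control 4 that of Slc17a8 was -0.0878 and that of Slc5a7 0.224. The window of Slc18a3 ran from -1.04 without Control 5 to -0.198 without Control 3, and that of Lhx8 from 0.336 without Control 8 to 1.19 without Control 5. Without Control 5 and Control 8, the pair with high strand disagreement, the window of Slc18a3 gave -1.66 points (limma-moderated quasi-binomial adjusted p = 0.935, unadjusted p = 0.0176). The other windows then gave -4.97 points for Chat, 2.03 for Slc5a7, -2.30 for Slc17a8, 0.621 for Lhx8 and 0.328 for Gbx2. The bodies without that pair gave -2.84 points for Chat and -2.68 for Lhx8, with the rest between -2.04 and 0.0992.

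**Figure D4:**
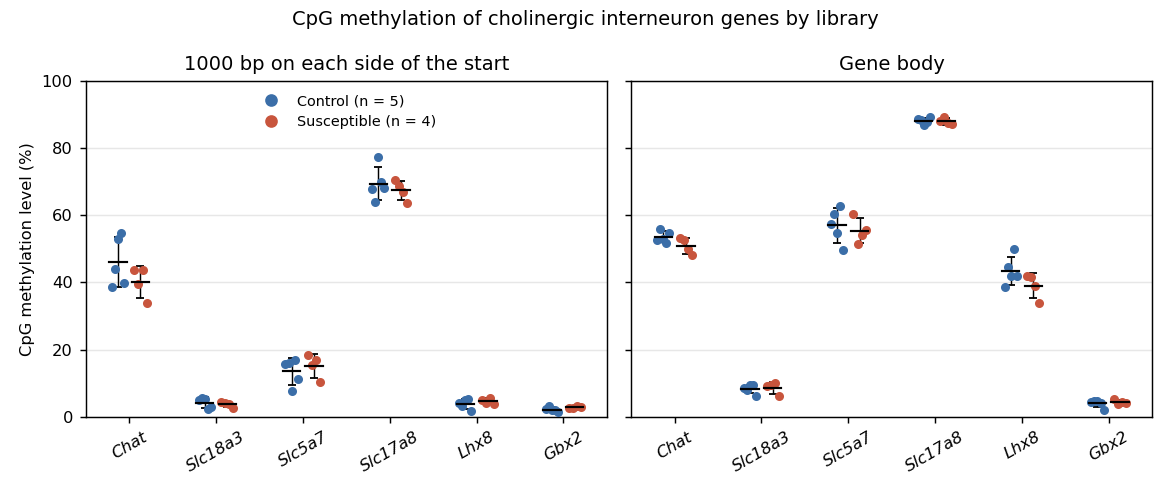
CpG methylation level (%, y axis) of start windows and gene bodies of the 6 genes in each of 5 Control (blue) and 4 Susceptible (red) libraries. Each point is a library, and bars give the mean and SD. The groups overlap at every gene in both panels.

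Across the whole gene, from annotated start to end, 5 of the 6 genes were less methylated than most. The median of 39099 gene bodies was 80.5%. Slc17a8 read 88.2% in Control libraries, at the 76.4 percentile of all genes, while Gbx2 read 3.98% and Slc18a3 8.30%, at the 1.62 and 2.72 percentiles. Chat, Slc5a7 and Lhx8 read 53.6%, 57.0% and 43.4%. These values include the low part around the start. With the first 2000 bp left out, Slc5a7 stood at the 53.8 percentile of genes tested that way and Lhx8 at the 8.59 percentile. Chat, also without Slc18a3, then stood at the 29.1 percentile. The body of Slc18a3 covers 2414 bp of the 57707 bp of Chat: without it and 1000 bp on each side the Chat body read 81.2% in Control libraries, and that piece alone 10.8%.

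No gene body of the 6 passed the test, and the groups overlapped in all. The quasi-binomial model called 0 of 6 (background 0% of 39099 bodies), with 0 of 6 at an unadjusted p under 0.05 (background 4.59%) and 0 of 6 without overlap (background 1.56%). With limma on logit levels 0 were called as well, and 0 of 6 and 1523 of 39099 bodies had an unadjusted p under 0.05. Means were higher in Susceptible libraries for 2 of 6 genes, where the share over all bodies was 42.1%, and the median difference over the 6 was -0.855 points against -0.336 over all bodies.

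The body of Chat read 52.7%, 55.8%, 52.9%, 51.7% and 54.7% in the Control libraries (2, 3, 4, 5 and 8) and 53.2%, 52.6%, 49.9% and 48.2% in the Susceptible ones (2, 3, 6 and 7). Susceptible 6 and 7 were the lowest, and Susceptible 2 and 3 lay among the Control values. The means were 53.6% ± 1.65 (SD, n = 5) and 51.0% ± 2.34 (SD, n = 4). The difference was -2.60 points (quasi-binomial p = 0.0563, adjusted p = 0.997, exact two-sided permutation p = 0.111). Without the part around Slc18a3 the means were 81.2% ± 1.001 and 80.1% ± 2.44, a difference of -1.10 points. That part alone read 10.8% and 10.4%, a difference of -0.371 points. Neither part differed as much as the whole body, whose level also depends on the share of calls from each part. Without Susceptible 7 the difference of the whole body was -1.67 points, and without Susceptible 6 and 7 together it was -0.686 points.

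Lhx8 had the largest body difference of the 6. It read 38.6%, 44.6%, 42.0%, 49.9% and 42.0% in the Control libraries in that order, and 41.8%, 41.6%, 38.9% and 34.0% in the Susceptible ones. Susceptible 7 was the lowest and Control 5 the highest, and Control 2 lay below 3 of the 4 Susceptible libraries. The means were 43.4% ± 4.22 (SD, n = 5) and 39.1% ± 3.65 (SD, n = 4). They differed by -4.37 points (quasi-binomial p = 0.0864, adjusted p = 0.997). Without Control 5 the difference was -2.74 points and without Susceptible 7 it was -2.67 points. Leaving out Susceptible 6 and 7 together gave -1.73 points.

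The other bodies differed by less than the spread between libraries. Slc18a3 read 6.27% to 9.39% in Control and 6.08% to 9.92% in Susceptible libraries, a difference of 0.371 points. Slc5a7 read 49.7% to 62.8% and 51.5% to 60.5%, a difference of -1.55 points that ran from -3.37 without Control 8 to -0.0956 without Control 5. Slc17a8 read 86.8% to 89.3% and 87.2% to 89.3%, a difference of -0.164 points, and its spread was narrow, at the 3.43 percentile of all bodies. Gbx2 read 2.13% to 4.67% and 3.82% to 5.20%, a difference of 0.338 points, with its lowest value in Control 8.

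An alternative reading left out the first 2000 bp of each gene with a RefSeq start (26794 of 49554), and for Chat also left out Slc18a3. Genes without such a start were kept whole in this reading and count in its background. Low tiles remained in it for Lhx8 and Gbx2, whose low stretches ran 3559 bp and 4175 bp past the start. It gave 2 of the 6 genes an unadjusted p under 0.05 (background 3.99% of 35823 genes) and 1 of 6 with no overlap between groups (background 1.38%, and 0.592% with Susceptible higher), and it called 0 of 6 and 0% of all genes after adjustment. Slc5a7 then read 86.4%, 85.7%, 84.7%, 83.5% and 81.3% in the Control libraries (2, 3, 4, 5 and 8) and 87.6%, 89.1%, 91.1% and 90.5% in the Susceptible ones (2, 3, 6 and 7). The lowest Susceptible value exceeded the highest Control value. The means were 84.3% ± 2.002 (SD, n = 5) and 89.6% ± 1.58 (SD, n = 4). Susceptible minus Control was 5.28 points from 1114 to 1940 calls a library (quasi-binomial p = 0.0038, adjusted p = 1).

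That difference of Slc5a7 did not survive adjustment over all genes. The exact two-sided permutation p was 0.00794, the smallest that the splits of 9 libraries can give, and the gene was picked out among 6 genes after the values were seen. Over settings added after seeing the data it stayed between 4.01 points without Control 5 and Control 8 and 6.40 points on CpGs listed in all 9 libraries, and adjusted p ran from 0.920 to 1. Lhx8 away from its start read 60.5% ± 3.49 (SD, n = 5) and 55.2% ± 2.73 (SD, n = 4). The gap between them was -5.39 points with overlapping groups (quasi-binomial p = 0.0178, adjusted p = 1). Without Susceptible 6 and 7 together, Slc5a7 differed by 4.05 points (limma-moderated unadjusted p = 0.0604) and Lhx8 by -3.22 points (unadjusted p = 0.168), and neither had an unadjusted p under 0.05 any more. Over all settings run, the difference of Lhx8 lay between -8.19 and -3.22 points. The same reading over all libraries gave -1.12 points for Chat, -4.64 for Slc18a3, -0.203 for Slc17a8 and -1.56 for Gbx2.

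**Figure D5:**
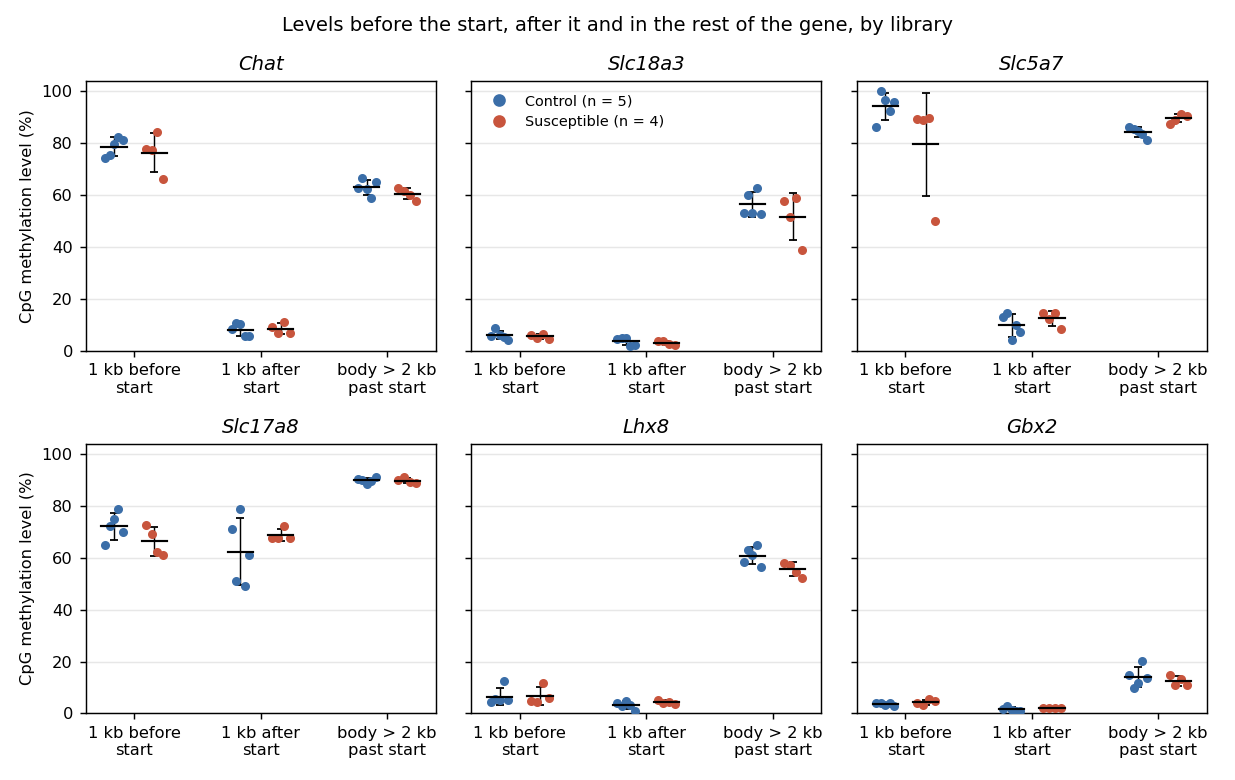
Methylation level (%, y axis) before the start, after it and in the gene body over 2 kb past it, for each gene and library (blue, 5 Control; red, 4 Susceptible), with the mean and SD. Chat is high before its start and low after it, the groups of Slc5a7 do not overlap in the rest of the gene (84.3% and 89.6%), and the Chat body is drawn here with Slc18a3 included. The point at 50% before the start of Slc5a7 is Susceptible 7, in a part with 16 to 72 calls a library.

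In the loci, each gene with 10000 bp on each side, 165 of 263 tiles of 1 kb could be tested and none was called (background 0% of 1041809 tiles). Of the 165 tiles, 4 had an unadjusted p under 0.05 (2.42%, background 4.38%) and 2 had groups that did not overlap (1.21%, background 1.56%). With limma on logit levels 0 were called, and 1 of 165 and 33856 of all tiles had an unadjusted p under 0.05. By locus, the tiles of small p were 1 of 55 at Chat, 1 of 36 at Lhx8 and 2 of 24 at Gbx2, and both shares over all loci are near the background. Susceptible means were higher in 67 of the 165, where the share over all tiles was 47.6%, and the median difference was -0.785 points against -0.181 over all tiles. Per locus, the smallest adjusted p was 0.997.

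In Chat the tile at 32429001 to 32430000 on chromosome 14, within the gene and 36408 bp past its start, had a Control mean of 84.0% ± 6.07 (SD, n = 5) and a Susceptible mean of 76.1% ± 3.01 (SD, n = 4). It was 1 of the 4 tiles of small p (quasi-binomial p = 0.0346, adjusted p = 0.997). The Control values ran from 75.3% (Control 8) to 92.3% (Control 5). The largest difference in the Chat and Slc18a3 loci was upstream of both genes, at 32473001 to 32474000. It was -10.8 points, but single libraries ran from 33.2% to 70.3% in Control and from 25.8% to 63.9% in Susceptible mice (quasi-binomial p = 0.4998, adjusted p = 0.997). Over the settings run this difference lay between -22.8 and -4.28 points. For the Slc18a3 locus the smallest p was at 32452001 to 32453000, within Chat, with 75.8% ± 3.28 and 69.4% ± 3.37.

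In Lhx8 the tile at 154326001 to 154327000 on chromosome 3, next to its low stretch, had both the smallest p and the largest difference. It read 79.7% ± 11.6 (SD, n = 5) and 67.8% ± 5.597 (SD, n = 4). This gave a difference of -11.8 points (quasi-binomial p = 0.0306, adjusted p = 0.997). Control 8, at 99.4%, was the highest, and the other Control libraries ran from 70.9% to 79.9%. Without Control 8 the difference was -6.90 points. A tile at the far end of the gene, 154306001 to 154307000, was 1 of the 2 whose groups did not overlap, with 94.8% and 88.4%.

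At Gbx2 2 tiles had an unadjusted p under 0.05, with opposite signs. The tile at 89927001 to 89928000 on chromosome 1, at the 3′ end of the gene, read 8.21% ± 1.89 (SD, n = 5) and 5.70% ± 1.17 (SD, n = 4). The Susceptible mean differed by -2.52 points (quasi-binomial p = 0.0277, adjusted p = 0.997). The tile at 89940001 to 89941000, at -9325 bp from the start, read 4.34%, 4.18%, 4.43%, 1.84% and 3.89% in the Control libraries (2, 3, 4, 5 and 8) and 6.63%, 6.28%, 5.04% and 7.10% in the Susceptible ones (2, 3, 6 and 7). All Susceptible values of that tile exceeded all Control values, with a difference of 2.52 points (quasi-binomial p = 0.0499, adjusted p = 0.997). The largest difference in the Gbx2 locus, -6.50 points at 89925001 to 89926000, lay within a Control spread of 12.97 points (SD, n = 5). With 1 library left out it ran from -9.96 to -1.29 points.

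In the other 2 loci no tile had an unadjusted p under 0.05. At Slc17a8 the tile at 89599001 to 89600000 on chromosome 10, which holds the second start, read 77.5% ± 4.89 (SD, n = 5) and 69.7% ± 6.00 (SD, n = 4), and the tile at 89577001 to 89578000 read 84.2% ± 10.2 and 92.2% ± 2.04. With 1 library left out, the difference of the tile at 89577001 ran from 4.09 to 11.1 points. At Slc5a7 only 8 of 47 tiles could be tested. The tile at 54301001 to 54302000 on chromosome 17, before the start, read 90.9% ± 6.53 and 84.4% ± 6.03, and the one at 54268001 to 54269000, past the end of the gene, read 89.0% ± 9.15 and 78.6% ± 15.8, a difference of -10.4 points that was -2.84 without Susceptible 3.

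Other genes of acetylcholine biology gave no call either. The lists held 11 genes of cholinergic or ventral forebrain identity, 9 of acetylcholine breakdown and choline supply and 14 acetylcholine receptors. Start windows of 10, 8 and 10 of them could be tested, and 0 were called, with an unadjusted p under 0.05 for 1 receptor gene (background 0% called and 4.86% at an unadjusted p under 0.05). That gene was Chrna4, a nicotinic receptor subunit, at 11.6% ± 2.44 (SD, n = 5) and 8.05% ± 2.40 (SD, n = 4). The difference did not pass the adjustment (quasi-binomial p = 0.0344, adjusted p = 0.965). The median differences of the 3 lists were -0.126, 0.340 and -0.367 points. The other windows named by the rule for small p were Zic4 and Lhx6, at -5.54 and 0.450 points, Bche and Prima1, at 3.40 and 1.75, and Chrna3, at 1.54. With 1 library left out, Zic4 ran from -7.46 to -4.06 points and Lhx6 from 0.103 to 0.753. Bche then ran from 2.15 to 4.55, Prima1 from 0.861 to 2.825 and Chrna3 from 0.975 to 2.39.

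All 34 bodies of these lists could be tested and 0 were called, with 2 of 11, 1 of 9 and 2 of 14 at an unadjusted p under 0.05, beside 4.59% of all bodies. Chka, which encodes the choline kinase that phosphorylates choline, was the 1 body of the 34 with groups that did not overlap (background 1.56%). Its body read 51.7%, 51.8%, 56.5%, 56.7% and 54.1% in the Control libraries (2, 3, 4, 5 and 8) and 49.2%, 51.3%, 47.9% and 48.5% in the Susceptible ones (2, 3, 6 and 7). All Susceptible libraries were lower, with a difference of -4.95 points (quasi-binomial p = 0.00262, adjusted p = 0.997). It was -2.99 points on CpGs listed in all 9 libraries and -1.06 points away from the start (unadjusted p = 0.389). Chrnb2, the partner subunit of Chrna4 in many nicotinic receptors, read 73.5% ± 3.72 and 68.4% ± 1.34 (quasi-binomial p = 0.00829, adjusted p = 0.997), and away from its start the difference was 0.681 points. Chrm4, a muscarinic receptor of striatal neurons, read 39.4% ± 1.80 and 42.2% ± 2.31. Zic1 and Nkx2-1, transcription factors of the ventral forebrain, differed by -4.24 and 0.715 points, and Prima1, the membrane anchor of acetylcholinesterase, by 1.01 points. With 1 library left out the Prima1 difference ran from 0.297 to 1.44 points. Median body differences were -1.07, -0.929 and -0.414 points for the 3 lists.

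Marker genes of other cell types had median body differences above and below the size of that of the 6 cholinergic genes, -0.855 points. The largest, over striatal projection neuron genes, was of opposite sign. Median body differences were 3.36 points over 12 striatal projection neuron genes, of which 9 had a higher Susceptible mean, -2.47 over 6 astrocyte genes, of which 0 were higher, -0.812 over 6 microglia genes, of which 0 were higher, and -1.22 over 7 genes of GABA interneurons, of which 1 was higher. They were -0.727 over 8 oligodendrocyte genes, of which 3 were higher, and -0.329 over 6 genes of cortical projection neurons, of which 1 was higher. Susceptible 6 and 7 were the 2 highest libraries for 7 of the 12 striatal genes, of which 2 chosen after seeing the values are given. Ppp1r1b, a signalling protein of these neurons, read 41.8% and 42.4% there, 26.3% and 26.9% in Susceptible 2 and 3 and 24.7% to 31.7% in Control libraries. Pde10a, a phosphodiesterase of the same cells, read 75.3% and 75.6% against 66.9% and 65.4%, with 64.4% to 67.99% in Control libraries. The 3 genes of the list with a lower Susceptible mean go the other way: Penk, Tac1 and Drd2 differed by -5.46, -1.47 and -0.742 points. The same 2 libraries were the lowest for the whole Chat body. Without the part around Slc18a3 this held for Susceptible 7 only. Susceptible 6 then read 82.0% and Susceptible 7 76.5%, with 80.3% to 82.8% in Control libraries. The part of these markers in the differences of the cholinergic genes was not tested.

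The genes whose body level followed that of Chat most closely over the 9 libraries, after the median of each library was taken off, were Tox2 (Pearson r = 0.954), Igtp (0.933) and Iqcf1 (0.917), out of 20100 protein-coding genes. This is a ranking over 9 points that share a library each, with no test. The other cholinergic genes were not close: r was 0.415 for Lhx8, 0.387 for Slc17a8, -0.00521 for Slc5a7, -0.171 for Gbx2 and -0.416 for Slc18a3, which overlaps Chat.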

How the data were processed

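Per the file headers, each deposited table lists cytosines of CpGs by strand with a coverage, the count of calls the authors obtained there, and the deposited percentages of C and of T calls, in percent. Per the submitters' processing notes the build was mm10, and Bismark, Bowtie and Picard were used. The sources used here name no versions. Strands of a CpG were added, and levels are methylated over all calls. Starts and bounds of genes came from RefSeq tables of GRCm38.p6: all 6 symbols matched, and 326511 of 326511 listed CpGs within promoter sequences fell on a CG. The tables give no exons, so positions are stated as within or outside a gene.

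Start windows, bodies and 1-kb tiles with no library under 3 CpGs or 20 calls were fitted with a quasi-binomial logistic model. The dispersion was moderated with limma's formulas, written in Python, and had a lower bound of 1. The moderated values of start windows and bodies were compared with those of limma 3.58.1 in R 4.3.3. The test named limma on logit levels used the same formulas in Python. An F test of the group was made in Python 3.11.15 (numpy 2.4.6, scipy 1.17.1, pandas 2.3.3), with Benjamini-Hochberg adjustment over all features and a threshold of 0.05. The model was tested on simulated data with 200 changed features. Single values were also given exact two-sided permutation tests. Calls from copies of 1 molecule are not independent, so call numbers understate the error. The members and lists were chosen with earlier results of these data known. All 6 members were named, with, per locus, the tile of smallest p and that of largest difference, and, per list, the 2 genes of smallest p. Tiles with groups that did not overlap or an unadjusted p under 0.05 were added after their values were seen. Alternatives varied coverage, CpGs, window, filter, test and libraries.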

Additional observations from a re-analysis of the deposited data

Results flagged for a closer look

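The Gbx2 body was the first of 2 results with a library far from the others of its group. Control 8 read 2.134%, and the other 4 Control libraries 4.065% to 4.668%. Without Control 8 the difference between the groups changed from 0.338 to -0.124 points.

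The second was the tile at 54268001 on chromosome 17, past the end of Slc5a7, where Control 2 read 73.08% and the other Control libraries 90.23% to 95.57%. The tile had 52 to 203 calls a library. Susceptible 3 read 55.8% and the other Susceptible libraries 80.0% to 89.8%, and without it the difference changed from -10.4 to -2.84 points. The Gbx2 body and this tile were 2 of 44 groups looked at, and chance marks about 1 in 20.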

How the results depend on the processing

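No alternative called any of the 6 genes or any tile of their loci. Over all features 0 were called except 1 start window with 2000 bp on each side and 1 tile without Control 4 (range 0 to 1 over the left-out libraries), neither in these loci. Of 667 alternative values for 36 results, 636 kept direction and side of the threshold and 31 reversed. Start windows reversed for Slc18a3 on CpGs listed in all 9 libraries (0.0301 points) and with 500 bp on each side (0.291), for Prima1 (-0.563) and Chrna3 (-0.343) with 500 bp, and for Slc5a7 with 2000 bp (-0.477). Bodies reversed for Gbx2 with at least 20 calls a cytosine (-0.218), and without Control 5 and Control 8 (-0.250), where Slc17a8 gave 0.0992 and the tile at 89925001 gave 1.14. Slc17a8 gave 0.359 on CpGs listed in all 9, and without Susceptible 6 and 7 together, a setting chosen after seeing the data, 0.545, with 0.111 in its start window. Away from the start, Slc5a7 gave 5.28, Chrnb2 0.681, Slc18a3 -4.64 and Gbx2 -1.56. Leaving out 1 library at a time gave -0.604 to 0.120 for the Slc17a8 body, -0.139 to 1.23 for Slc18a3 and -0.124 to 0.510 for Gbx2. Body differences of Chat stayed between -3.82 and -0.686 in the settings run, with an unadjusted p under 0.05 in 4 of them. The cause was not tested. In simulated data the tile test recovered 1% of 200 changes of 10 points, 18% of 20 points and 92% of 40 points. The body test recovered 47% of 10 points. The changed features were all near the middle of the scale, while the median level of the tested tiles in these loci was 85.9%. Smaller changes were not simulated.

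Numbers 2 and 3 occur in both groups. Deviations from the group means over 1041809 tiles correlated at 0.0258 for number 2 and -0.0171 for number 3, and at 0.0387 and -0.0014 across the numbers. The labels do not say whether a shared number means a shared batch or pair, and that was not tested further. With the numbers as a replicate block, in 4 libraries, 0 features were called. The block reversed the start windows of Chat (0.335), Slc17a8 (3.67), Gbx2 (-0.139), Prima1 (-0.417) and Chrna4 (0.281), the bodies of Lhx8 (0.0919), Gbx2 (-0.0523) and Slc17a8 (0.244), and the tile at 89925001 (5.78).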

Other observations

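In the 1000 bp after the start of Slc17a8, Control 2 and Control 4 read 71.3% and 79.0% and Control 3, 5 and 8 read 50.9%, 49.1% and 61.3%, while the 4 Susceptible libraries read 67.6% to 72.1%. The part had 163 to 600 calls a library. In the 1000 bp before the start the SDs were 5.25 in Control and 5.51 in Susceptible libraries. The difference in spread after the start was not tested.

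In the 1000 bp before the start of Chat, Susceptible 7 read 66.1%, below the other 8 libraries at 74.2% to 84.3%. It was also the lowest of the 9 in the bodies of Chat, Slc18a3 and Lhx8, and over all autosomal CpGs, at 74.5% against 75.7% to 77.1%. After the median of all bodies was taken off each library, the lowest was Susceptible 6 for Chat, Control 8 for Slc18a3 and Susceptible 7 for Lhx8.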
